A study of Homo sapiens with 16 samples.

Results

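Afatinib alone was set against DMSO, its solvent, in MDA-MB-231 cells: 4 libraries of afatinib-treated cells and 4 of DMSO-treated cells, 8 of the 16 libraries of the series, described across all 17991 genes tested. The members were taken by their labelled treatment, with no measured value in the choice. MDA-MB-231 is an established human triple-negative breast cancer line, so every group is a model of 1 line, and its cells were grown in DMEM with fetal bovine serum in all groups. The other 8 libraries, 4 with paclitaxel and 4 with paclitaxel and afatinib together, were used to estimate the spread between libraries and to compare the afatinib response with that to paclitaxel. Dose and exposure time are not given in the sources used here, nor is it said that replicates were separate cultures, so p-values measure the spread between these libraries, which may be technical.

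Afatinib binds irreversibly to the kinases of the EGFR family. Ligands such as HBEGF and TGFA join these receptors into pairs, whose phosphorylated tails recruit adaptors and turn on the RAS to ERK kinase cascade and the PI3K to AKT pathway. ERK activity switches on early transcription factors, secreted factors and its own inhibitors, while AKT activity holds FOXO transcription factors out of the nucleus. MDA-MB-231 cells carry activating mutations in the RAS to ERK pathway, so that ERK is active in them below the receptor.

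Libraries of these 8 held 39667328 to 47155036 counts. Replicates 1 and 2 had labelled RNA concentrations of 868.6 to 1290.9 ng/µl and replicates 3 and 4 of 180.6 to 330 ng/µl, and these 2 concentration sets were a term in the models unless said otherwise. In the lower set afatinib was labelled 180.6 and 188 ng/µl and DMSO 292.1 and 330 ng/µl. The sets therefore did not match RNA concentration between afatinib and DMSO. In a principal component analysis the first component (54.2% of the variance) separated the sets, with DMSO replicate 3 nearest to the other set, and the second (17.2%) separated afatinib from DMSO. Levels below are CPM, counts scaled to a common library size with edgeR's TMM factors, given for replicates 1 to 4 in that order, and changes are log2 afatinib over DMSO ± SE from edgeR's quasi-likelihood test with Benjamini-Hochberg adjusted p. A gene is said to have risen or fallen where the adjusted p was under 0.05. In bulk RNA, fewer cells of a kind and less RNA per cell cannot be told apart.

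Afatinib changed many genes by small amounts. Of the genes tested, 3432 were called (19.1%), 1620 of them higher with afatinib (9% of all genes tested) and 1812 lower (10.1%), and 247 of them changed more than 2-fold (1.37%), 167 up and 80 down. Without the set term 380 genes were called, 219 up and 161 down, and 57 were called against a null of a 1.5-fold change. With RNA concentration as a further term beside the sets 2467 were called, 1141 up and 1326 down, and 2369 of them were among the 3432. Over all 8 libraries, 835 genes had every afatinib value above every DMSO value (4.64%) and 734 had every value below (4.08%). Within each concentration set, afatinib stood above DMSO without overlap in both sets for 2313 genes (12.9%) and below for 2674 (14.9%). No gene was called for a difference of the afatinib change between the sets (0 of 17991, 0%, by edgeR and by DESeq2), with 339 at an unadjusted p under 0.05 by edgeR and 131 by DESeq2.

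The direction of change went with the level of expression. Of the 3667 genes with an average of at least 6 log2 CPM, 908 fell (24.8%) and 142 rose (3.87%), and their median change was -0.08. Of the 3838 genes between 0 and 3 log2 CPM, 546 rose (14.2%) and 192 fell (5%), with a median of 0.07. Genes between 3 and 6 were nearly even, with 680 up and 622 down. Gene types differed as well. Antisense transcripts, as GENCODE classes them, rose in 85 of 1019 cases (8.34%) and fell in 13 (1.28%). Processed pseudogenes, copies of messenger RNAs, rose in 14 of 1378 (1.02%) and fell in 58 (4.21%). Neither class rose or fell more often than all genes tested, of which 9% rose and 10.1% fell. The median SE was 0.26 for antisense transcripts and 0.24 for processed pseudogenes, against 0.09 for all genes tested. Whether reads were counted by strand is not given in the sources used here, so reads of an antisense gene and of its partner may have been mixed. The median change of all genes tested was 0. Counts of rises and falls in the gene lists below stand beside 9% rises and 10.1% falls over all genes tested. For list members of at least 6 log2 CPM the shares of that level, 3.87% and 24.8%, apply. For those between 0 and 3 log2 CPM it is 14.2% rises and 5% falls.

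**Figure D1:**
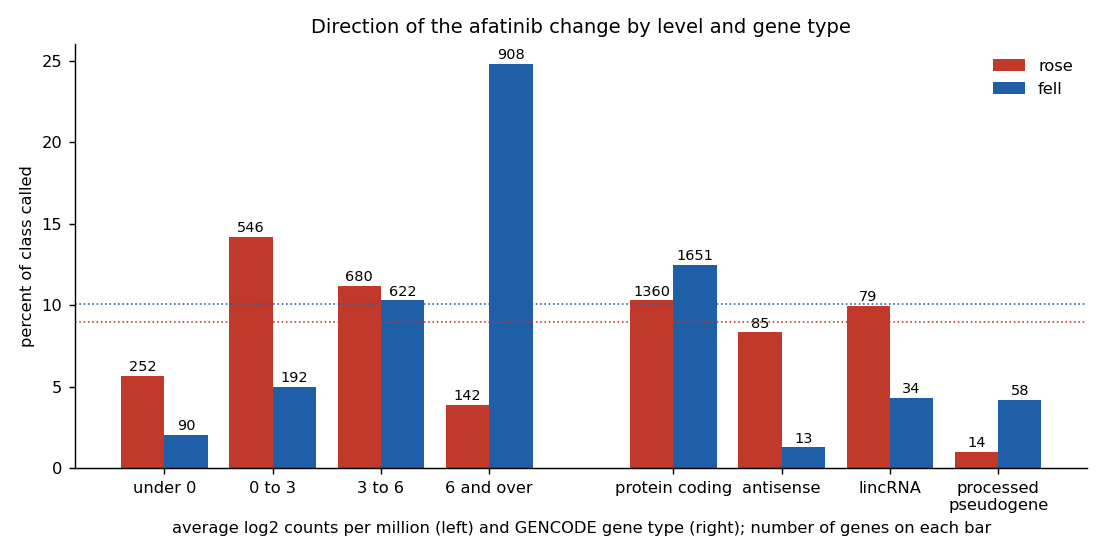
Percent of genes called higher (red) or lower (blue) with afatinib against DMSO, by average level in log2 CPM (left) and by GENCODE gene type (right), with the number of genes on each bar and the shares of all genes tested as dotted lines (9% and 10.1%). Among genes of at least 6 log2 CPM 24.8% fell and 3.87% rose, and among genes of 0 to 3 log2 CPM 5% fell and 14.2% rose.

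**Figure D2:**
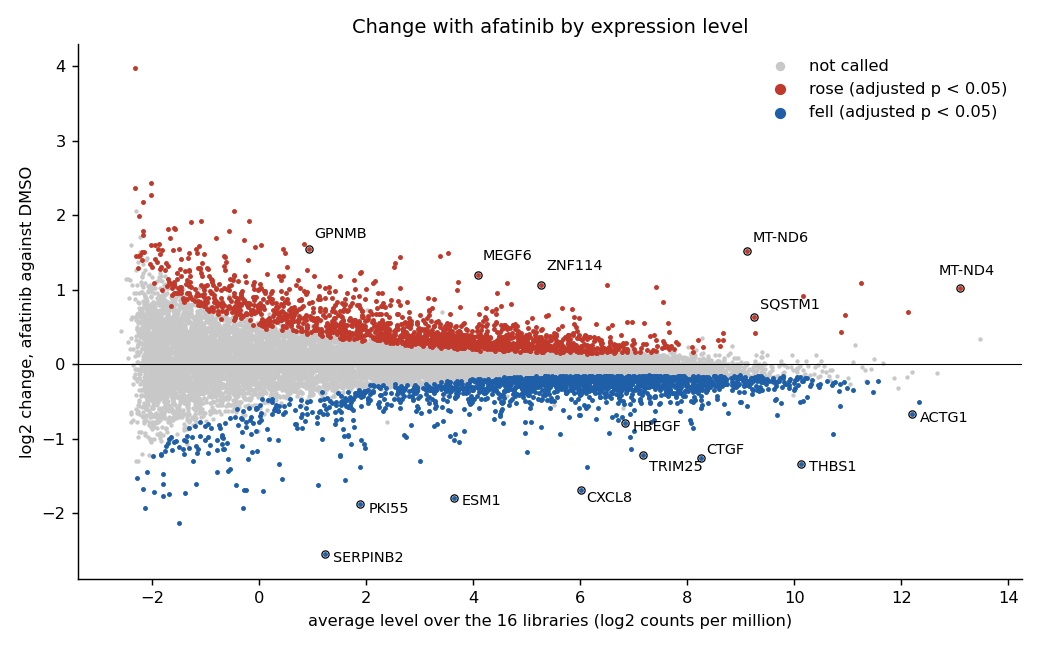
Log2 change with afatinib against DMSO (vertical axis) by average level over the 16 libraries in log2 CPM (horizontal axis), 1 point per gene tested, red for the 1620 that rose, blue for the 1812 that fell and grey for the rest. Most called changes are small, and the largest among well expressed genes include falls of THBS1, CTGF, CXCL8 and TRIM25 and rises of mitochondrially encoded genes, MEGF6 and ZNF114.

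Among the receptors of the drug's target family, EGFR messenger RNA did not change measurably. EGFR stood at 570, 429, 850 and 1050 CPM in DMSO and at 512, 493, 952 and 895 CPM with afatinib, and the groups overlapped within both sets (log2 change -0.02 ± 0.09, adjusted p = 0.925). ERBB2, the partner receptor that binds no ligand of its own, stood at 53.9, 60, 80.8 and 102 CPM in DMSO and at 51.4, 53.3, 94.3 and 84.7 CPM with afatinib (-0.08 ± 0.07, adjusted p = 0.492), with overlap within the lower concentration set only. ERBB3, which signals through its partners, rose from a low level (0.61 ± 0.18, adjusted p = 0.0186), but dropping either afatinib replicate 3 or 4, or DMSO replicate 1, ended the call (adjusted p 0.0546 to 0.0839), or with RNA concentration as a further term (0.0574). ERBB4 did not pass the filter on low counts. These messenger RNA levels say nothing of kinase activity, which was not measured.

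Ligands of these receptors changed in both directions. HBEGF (chromosome 5, 140332843 to 140346631 on GRCh38, minus strand), a membrane-bound ligand released by shedding, stood at 149, 129, 157 and 183 CPM in DMSO and at 87.2, 68.2, 108 and 94.4 CPM with afatinib. All 4 afatinib libraries lay below all 4 DMSO libraries, and HBEGF fell by 0.79 on the log2 scale (SE 0.07, adjusted p = 9.12e-08). TGFA, a second ligand of EGFR, also fell without overlap, from 130, 126, 132 and 143 CPM to 104, 102, 109 and 100 CPM (-0.35 ± 0.05, adjusted p = 1.79e-05). BTC, a ligand of EGFR and ERBB4, moved the other way from a low level, from 1.21, 1.32, 1.23 and 1.13 CPM to 2.23, 2.55, 2.33 and 2.5 CPM (0.97 ± 0.14, adjusted p = 2.94e-05).

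The calls of 2 further ligands were close to the threshold. AREG (-0.39 ± 0.13, adjusted p = 0.0335) was no longer called when any of afatinib replicates 2 to 4 or DMSO replicates 1 and 4 was dropped (log2 change -0.38 to -0.25, adjusted p 0.0731 to 0.177) or with RNA concentration as a further term (0.0946), and NRG1 (-0.21 ± 0.07, adjusted p = 0.0448) when any 1 of the 4 afatinib libraries or of DMSO replicates 1 and 4 was dropped (log2 change -0.22 to -0.16, adjusted p 0.0709 to 0.15). Of 11 family receptors and ligands tested, 2 rose and 4 fell, with a median of -0.07 beside 0 over all genes.

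Genes for proteins that relay or damp the receptor signal were lowered in part. Of 25 adaptors, shedding enzymes and inhibitors tested, 8 fell and 1 rose (median -0.05). SHC1, the adaptor that links EGFR to RAS activation, fell from 252, 253, 221 and 212 CPM to 211, 204, 181 and 183 CPM, below DMSO in every library (-0.27 ± 0.05, adjusted p = 0.000216). CBL, the ubiquitin ligase that sends EGFR for degradation (-0.33 ± 0.08, adjusted p = 0.00297), and PTPN12, a tyrosine phosphatase (-0.33 ± 0.06, adjusted p = 0.000178), fell as well. ERRFI1, which encodes the EGFR inhibitor MIG6, fell by 0.27 (SE 0.06, adjusted p = 0.00323), with an adjusted p of 0.062 in the authors' concentration-corrected table. In the core RAS to ERK cascade 3 of 22 genes rose and 3 fell (13.6% each, beside 9% and 10.1% of all genes tested). Rises were seen in the small GTPases MRAS (0.52 ± 0.09) and RRAS (0.36 ± 0.07) and in the scaffold KSR1 (0.35 ± 0.08), and RPS6KA5, a kinase downstream of ERK, fell by 0.48 (SE 0.11).

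Genes known as outputs and feedback inhibitors of ERK included 11 falls and 1 rise among 24 tested. Their median was -0.21, and 10.1% of all genes tested fell. DUSP6, the phosphatase that removes ERK's activating phosphates, stood at 46.2, 43.9, 47.1 and 48.7 CPM in DMSO and at 32.3, 34.8, 41.6 and 39.8 CPM with afatinib, with no overlap (-0.33 ± 0.08, adjusted p = 0.00269). SPRY4, another feedback inhibitor, fell by 0.36 (SE 0.07, adjusted p = 0.000714) and PHLDA1 by 0.3 (SE 0.05, adjusted p = 0.000134). The ETS factor ETV4 fell from 81, 85, 60.5 and 60 CPM to 67, 59.4, 43.3 and 45.8 CPM, below DMSO within each set although the sets overlap (-0.41 ± 0.06, adjusted p = 4.44e-05). Its relative ETV1 was the 1 member that rose (0.24 ± 0.06, adjusted p = 0.0103). CCND1, the cyclin that starts G1 progression, fell by 0.28 (SE 0.06, adjusted p = 0.00147), and EPHA2, a receptor tyrosine kinase, by 0.33 (SE 0.07, adjusted p = 0.00161), the latter with overlap within the lower concentration set.

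Immediate-early and AP-1 genes moved little. Of 24 tested, 4 fell and none of the others passed (median -0.13). SRF, the factor that binds serum response elements, fell by 0.32 (SE 0.05, adjusted p = 0.000146), and MAFF, a small MAF factor, fell from 67.9, 54.9, 46.2 and 46 CPM to 52.9, 35.1, 35.4 and 33.8 CPM (-0.45 ± 0.09, adjusted p = 0.00199). On the PI3K side, of 22 FOXO and PI3K-inhibition targets, 8 rose and 1 fell (median 0.13), while 1 of 22 PI3K, AKT and mTOR components rose and 3 fell (median -0.03). SESN3, a stress protein that restrains mTORC1, rose from 1.53, 1.81, 2.18 and 1.92 CPM to 1.92, 3.76, 4.58 and 2.75 CPM (0.8 ± 0.2, adjusted p = 0.00749). FOXO3 itself was higher in every afatinib library, at 61.8, 64.8, 61.7 and 62 CPM against 53.3, 49.3, 57.8 and 52.7 CPM (0.23 ± 0.06, adjusted p = 0.00814), and PIK3IP1, an inhibitor of PI3K, rose by 0.57 (SE 0.13, adjusted p = 0.00344). Both calls were lost in the authors' concentration-corrected table (adjusted p 0.0777 and 0.0586).

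**Figure D3:**
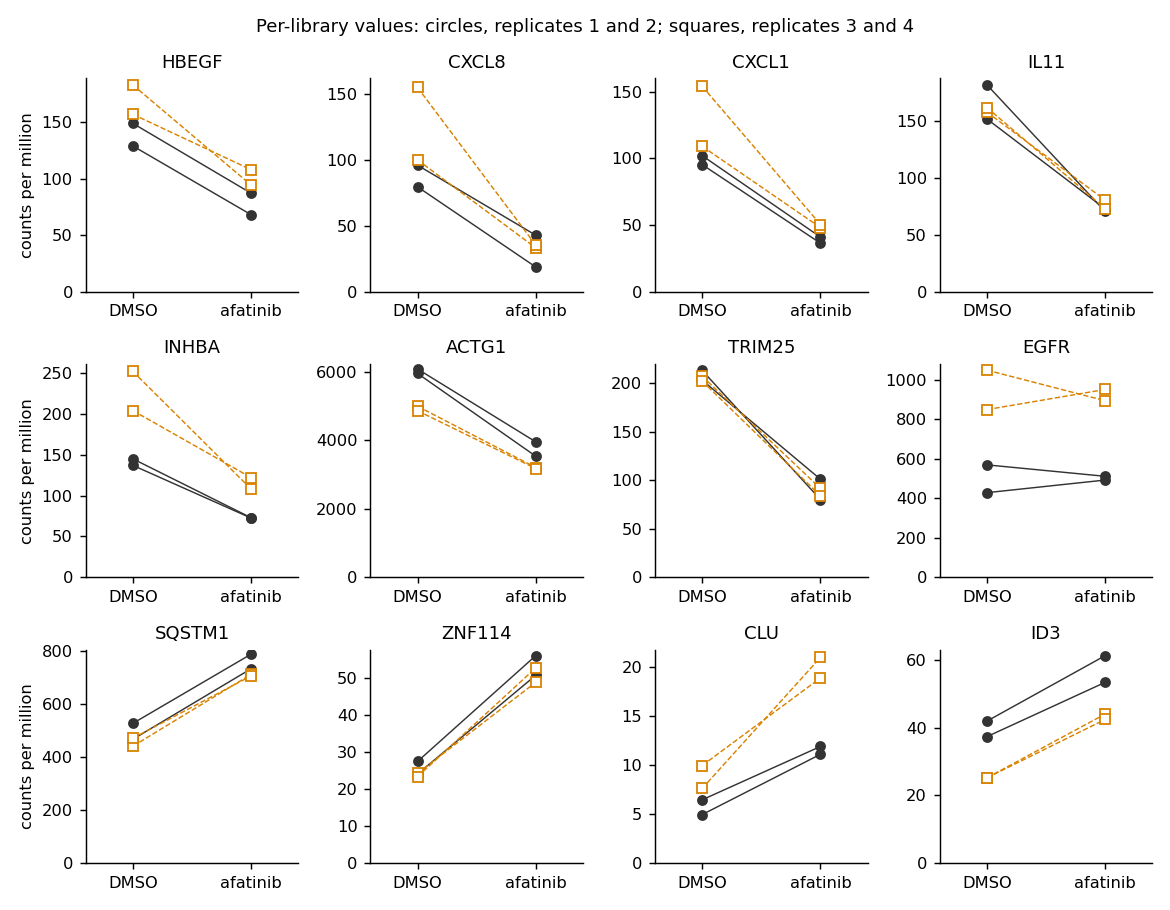
Level in CPM in each of the 8 libraries for 12 genes, with DMSO and afatinib libraries of the same replicate number joined by lines, filled circles for replicates 1 and 2 (higher RNA concentration) and open squares for replicates 3 and 4 (lower). HBEGF, CXCL8, CXCL1, IL11, INHBA, ACTG1 and TRIM25 lie lower and SQSTM1, ZNF114, CLU and ID3 higher with afatinib without overlap, and EGFR overlaps.

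Secreted inflammatory signals were among the genes that fell. Chemokines of the CXC class with an ELR motif attract neutrophils and are induced by NF-kB and AP-1, and their genes lie side by side on chromosome 4. To show the stretch of DNA in front of some of the genes that fell, the promoter windows of CXCL8, IL1A, IL11 and F3 follow, each from 250 bases before to 50 bases after the RefSeq transcription start on GRCh38.p14, 5′ to 3′ on the gene's own strand. Capitals mark the AP-1 motif, TGACTCA or TGAGTCA, which are the reverse complement of each other and were searched on both strands. The windows were picked because they hold the motif.
CXCL8: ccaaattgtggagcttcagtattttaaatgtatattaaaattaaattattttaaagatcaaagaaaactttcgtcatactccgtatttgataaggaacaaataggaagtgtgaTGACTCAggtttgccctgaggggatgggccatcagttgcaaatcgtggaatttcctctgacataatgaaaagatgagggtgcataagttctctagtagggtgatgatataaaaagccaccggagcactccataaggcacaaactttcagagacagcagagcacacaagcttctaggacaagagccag
IL1A: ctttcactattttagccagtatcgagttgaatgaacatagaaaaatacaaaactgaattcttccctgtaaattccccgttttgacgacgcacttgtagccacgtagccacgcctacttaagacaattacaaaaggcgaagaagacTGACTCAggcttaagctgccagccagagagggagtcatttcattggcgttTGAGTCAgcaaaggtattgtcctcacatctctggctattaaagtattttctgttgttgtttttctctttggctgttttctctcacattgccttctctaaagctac
IL11: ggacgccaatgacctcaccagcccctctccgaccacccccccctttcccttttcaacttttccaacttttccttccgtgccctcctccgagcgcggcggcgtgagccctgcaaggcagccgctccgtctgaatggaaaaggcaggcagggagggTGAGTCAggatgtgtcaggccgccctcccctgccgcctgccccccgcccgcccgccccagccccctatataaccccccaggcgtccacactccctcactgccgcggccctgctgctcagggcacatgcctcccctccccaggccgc
F3: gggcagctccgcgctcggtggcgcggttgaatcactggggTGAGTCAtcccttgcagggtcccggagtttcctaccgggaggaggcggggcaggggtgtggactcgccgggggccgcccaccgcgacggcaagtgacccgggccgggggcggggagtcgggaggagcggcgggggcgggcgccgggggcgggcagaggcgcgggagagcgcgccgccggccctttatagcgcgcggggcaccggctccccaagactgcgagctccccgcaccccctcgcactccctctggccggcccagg
CXCL8 (chr4:73740319-73740618, plus strand) held the motif once and IL1A (chr2:112784351-112784650, minus strand) held it at 2 positions. IL11 (chr19:55370414-55370713, minus strand) and F3 (chr1:94541710-94542009, minus strand) held it once each. Of the windows of all tested genes 3.77% held it, and of those in hand 1 of 7 for chemokines, 3 of 8 for cytokines and 4 of 12 for the plasminogen and coagulation list. Among called genes, 65 of 1052 windows of those that rose held it (6.18%) and 47 of 1305 of those that fell (3.6%). Windows were at hand for 10556 of the 17991 genes (58.7%), under 80%, so a comparison of motif shares between genes that rose and fell would be void. The shares of these lists cannot be compared with that of all genes for the same reason, and the lists were chosen with earlier results known. A match is a description of the letters and not evidence of binding.

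Most chemokine genes expressed here fell. Of 8 tested, 6 fell and none rose, with a median of -1.21. CXCL8 (interleukin-8) stood at 96, 79.6, 100 and 155 CPM in DMSO and at 42.9, 18.8, 33.3 and 35.4 CPM with afatinib, each afatinib library below each DMSO library (-1.69 ± 0.28, adjusted p = 0.00165). CXCL1 fell from 102, 95.3, 109 and 154 CPM to 41, 36.4, 48.1 and 50.4 CPM (-1.38 ± 0.14, adjusted p = 9.12e-06). The CXCL3 values with afatinib were close together, at 9.05, 9, 8.98 and 9.19 CPM against 17.1, 19.2, 17.1 and 21.5 CPM (-1.04 ± 0.12, adjusted p = 5e-06).

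These genes lie on chromosome 4 of GRCh38 between the start of CXCL8 at 73740506 and the end of CXCL2 at 74099293. CXCL5, expressed at only 0.252 to 0.62 CPM in DMSO, also fell (-1.6 ± 0.38, adjusted p = 0.00374). CXCL2, at the far end of the row from CXCL8, fell by 0.61 (SE 0.18, adjusted p = 0.0314), but not when any of afatinib replicates 2 to 4 or DMSO replicates 1 and 4 was dropped (adjusted p 0.0847 to 0.0938) or with RNA concentration as a further term (0.0919). PF4, the platelet factor gene within the same row, averaged 0.483 CPM in DMSO and was not called (-0.4 ± 0.27, adjusted p = 0.334), and CXCL6, PF4V1 and PPBP had too few counts to be tested. Elsewhere, CCL20 fell by 1.77 (SE 0.5, adjusted p = 0.015) with DMSO libraries at 0.179 to 0.62 CPM, and the call ended when afatinib replicate 3 (adjusted p 0.0542) or DMSO replicate 4 (0.0586) was dropped.

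Cytokines split by identity, 8 of 14 falling and 3 rising (median -0.47). IL1A, an alarm cytokine of the interleukin-1 pair, stood at 10.3, 14.3, 13 and 13.9 CPM in DMSO and at 4.99, 5.98, 5.03 and 4.98 CPM with afatinib (-1.29 ± 0.12, adjusted p = 8.3e-08). Its neighbour IL1B fell from 3.29, 4.35, 5.99 and 5.93 CPM to 1.8, 1.05, 1.75 and 2.02 CPM (-1.55 ± 0.16, adjusted p = 2.5e-07). IL11, a cytokine of the interleukin-6 family linked to bone metastasis, fell from 152, 182, 158 and 162 CPM to 72.9, 70.6, 80.6 and 73 CPM (-1.14 ± 0.1, adjusted p = 1.03e-07). In all 3 the groups did not overlap.

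LIF, of the same family as IL11, fell by 0.49 (SE 0.07, adjusted p = 1.07e-05), and CSF3, the granulocyte growth factor, fell from 93.9, 117, 144 and 195 CPM to 53.1, 57.8, 89.4 and 90.8 CPM (-0.92 ± 0.15, adjusted p = 0.00101). TNFSF15, a ligand of the tumour necrosis factor family, fell by 0.87 (SE 0.21, adjusted p = 0.00537). The falls of IL6 (-0.46 ± 0.15, adjusted p = 0.031) and CSF2 (-0.63 ± 0.17, adjusted p = 0.0173) were lost when single libraries were left out, for IL6 any of afatinib replicates 2 to 4 and DMSO replicates 1 and 4 (adjusted p 0.0521 to 0.136) and for CSF2 any of afatinib replicates 2 and 3 and DMSO replicates 1 and 4 (adjusted p 0.0518 to 0.0587). The 3 rises were IL18 (0.33 ± 0.07, adjusted p = 0.00146), IL15 (0.44 ± 0.11, adjusted p = 0.00733) and CSF1 (0.38 ± 0.1, adjusted p = 0.00994). CSF1, the macrophage growth factor, was no longer called with RNA concentration as a further term (adjusted p 0.0533) or in the authors' corrected table (adjusted p 0.369).

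Genes of the NF-kB pathway itself moved in few cases. Of 20 subunits and feedback genes 3 fell and 1 rose (median -0.1). TNFAIP2, induced by tumour necrosis factor, fell by 0.42 (SE 0.06, adjusted p = 9.12e-06), while BIRC3, an NF-kB target that blocks cell death, rose from 88.9, 80.9, 74.7 and 64.1 CPM to 111, 135, 99.5 and 99.8 CPM, with no overlap (0.53 ± 0.07, adjusted p = 7.99e-06). In the STAT list 1 of 18 rose and 1 fell. The riser was IL6R, the interleukin-6 receptor (0.53 ± 0.09, adjusted p = 0.000176), with an adjusted p of 0.0542 in the authors' corrected table.

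In a list of 17 antigen presentation and recognition genes 3 fell and none rose (median -0.03), beside 10.1% falls among all genes, and the 3 are surface proteins read by immune cells. CD274, which encodes the checkpoint ligand PD-L1, stood at 34.3, 33.5, 51.9 and 60.4 CPM in DMSO and at 18.4, 20.5, 36 and 30.8 CPM with afatinib, below DMSO within each set (-0.78 ± 0.08, adjusted p = 3.62e-07). PVR, the ligand of TIGIT and CD226, fell by 0.41 (SE 0.09, adjusted p = 0.00355), and ULBP2, a ligand of the natural killer receptor NKG2D, by 0.62 (SE 0.09, adjusted p = 2.97e-05).

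Interferon-stimulated genes went both ways, with 7 of 35 higher (20%) and 4 lower (11.4%), beside 9% and 10.1% of all genes tested (median 0.07). The gene of the list with the smallest p was TRIM25 (chromosome 17, 56836387 to 56914080, minus strand), a ubiquitin ligase that activates the RNA sensor RIG-I, and it fell. TRIM25 stood at 213, 203, 207 and 202 CPM in DMSO and at 80.1, 101, 91.5 and 83.9 CPM with afatinib, with no overlap (-1.21 ± 0.08, adjusted p = 1.98e-10). PARP9 (0.43 ± 0.08) and the RNA sensor IFIH1 (0.38 ± 0.08, adjusted p = 0.00217) rose, and the membrane protein IFITM3 fell by 0.3 (SE 0.07, adjusted p = 0.00303).

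Falls were called for actin cytoskeleton genes. Of 23 SRF and contractile actin genes 13 fell and 1 rose, with a median of -0.33. Of all genes tested 10.1% fell, and of those of at least 6 log2 CPM 24.8% did. ACTG1, cytoplasmic gamma-actin and one of the most abundant transcripts, stood at 6090, 5960, 5000 and 4870 CPM in DMSO and at 3960, 3540, 3210 and 3180 CPM with afatinib (-0.66 ± 0.07, adjusted p = 1.69e-07). ACTB, beta-actin, fell from 6640, 6320, 5420 and 5260 CPM to 4910, 4080, 3740 and 3910 CPM (-0.5 ± 0.06, adjusted p = 5.16e-06). In both genes every afatinib library lay below every DMSO library.

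Partners of actin followed. TAGLN, the actin-bundling transgelin, fell from 150, 133, 113 and 105 CPM to 92.4, 74.8, 59.7 and 71.2 CPM (-0.75 ± 0.08, adjusted p = 7.91e-07), and CALD1, caldesmon, fell by 0.52 (SE 0.06, adjusted p = 5.17e-07). ACTG2, smooth muscle gamma-actin, fell by 1.62 (SE 0.29, adjusted p = 0.000263) from a level of 0.692 to 1.26 CPM. CNN2 (calponin, -0.44 ± 0.06), TPM4 (tropomyosin, -0.44 ± 0.07), MYL9 (myosin light chain, -0.35 ± 0.07) and ZYX (zyxin, -0.34 ± 0.06) fell with adjusted p of 1.45e-05 to 0.00186. Of 18 tubulin and microtubule-binding genes 7 fell and 1 rose (median -0.17), the riser being MAP1A, a microtubule-associated protein, which went from 3.16, 3.1, 4.47 and 4.53 CPM to 6.94, 7.32, 8.19 and 7.96 CPM (1.02 ± 0.11, adjusted p = 3.51e-07).

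YAP and TEAD, which read cell shape and tension, have targets that overlap with those of SRF. Of 23 factors and targets 13 fell and none rose (median -0.19). CTGF, the connective tissue growth factor, stood at 564, 335, 518 and 753 CPM in DMSO and at 216, 131, 299 and 288 CPM with afatinib (-1.25 ± 0.25, adjusted p = 0.0046). ANKRD1 fell from 521, 414, 367 and 360 CPM to 356, 263, 236 and 250 CPM (-0.59 ± 0.09, adjusted p = 0.000107). NUAK2, a kinase of the same program, fell by 0.52 (SE 0.08, adjusted p = 7.9e-05), and the factor TEAD4 by 0.28 (SE 0.06, adjusted p = 0.00144). The promoter window of ANKRD1 (chr10:90921038-90921337, minus strand, RefSeq, GRCh38.p14) is shown because it held the TEAD motif GGAATG, in capitals, at 2 positions on the printed strand.
ANKRD1: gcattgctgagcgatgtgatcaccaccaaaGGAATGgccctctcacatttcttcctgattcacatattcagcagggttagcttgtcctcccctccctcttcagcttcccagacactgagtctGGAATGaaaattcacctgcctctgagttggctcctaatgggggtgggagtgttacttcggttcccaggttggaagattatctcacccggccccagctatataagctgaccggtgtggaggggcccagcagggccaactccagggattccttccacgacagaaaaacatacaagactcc
The motif, searched on both strands, was in 11.2% of the windows of all genes tested and in 9 of 16 windows of this list. As above, these shares cannot be compared, since too few genes had a window.

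Falls and no rises were called among matrix, adhesion and protease genes. Of 34 matrix, integrin and mesenchymal genes 19 fell and none rose (median -0.3), and of 23 matrix proteases and inhibitors 7 fell and none rose (median -0.1). THBS1, thrombospondin, stood at 1490, 1050, 1870 and 2630 CPM in DMSO and at 546, 433, 960 and 890 CPM with afatinib (-1.33 ± 0.19, adjusted p = 0.000432). ITGA6, a laminin receptor, fell by 0.65 (SE 0.07, adjusted p = 9.16e-07), and COL13A1, a membrane collagen, by 0.9 (SE 0.14, adjusted p = 0.00037). FN1, fibronectin, differed more between the sets than between the treatments, at 578, 476, 1180 and 1540 CPM in DMSO and 380, 382, 1030 and 947 CPM with afatinib (-0.46 ± 0.1, adjusted p = 0.00256). VIM, vimentin, fell by 0.35 (SE 0.06, adjusted p = 0.000416).

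Among the proteases, ADAMTS6 fell from 50, 38.8, 41.3 and 45 CPM to 24.7, 17.2, 17.3 and 19 CPM (-1.17 ± 0.1, adjusted p = 2.23e-07). MMP14, the membrane collagenase, fell from 614, 685, 1050 and 1450 CPM to 393, 393, 850 and 757 CPM, below DMSO within each set (-0.68 ± 0.1, adjusted p = 4.22e-05). ADAM19 (-0.7 ± 0.07, adjusted p = 2.79e-07) and MMP9 (-0.85 ± 0.17, adjusted p = 0.00111) fell too, MMP9 from a level of 1.33 to 2.99 CPM.

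The plasminogen system, whose activators and inhibitors govern proteolysis at the cell surface, fell in 10 of 16 genes with none rising (median -0.32). SERPINB2, an inhibitor of urokinase on chromosome 18 (63871692 to 63903890), had the most negative log2 change among the genes named here, from 1.62, 1.38, 1.79 and 2.89 CPM to 0.305, 0.224, 0.506 and 0.273 CPM (-2.55 ± 0.26, adjusted p = 3.91e-07). The groups did not overlap.

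Activators and their receptor fell as well. PLAU, urokinase, fell by 0.79 (SE 0.1, adjusted p = 7.88e-06), its receptor PLAUR by 0.52 (SE 0.08, adjusted p = 9.65e-05) and PLAT, tissue plasminogen activator, by 0.59 (SE 0.1, adjusted p = 0.000428). F3, the tissue factor that starts coagulation, stood at 260, 278, 366 and 469 CPM in DMSO and at 143, 148, 245 and 234 CPM with afatinib, all below DMSO (-0.85 ± 0.09, adjusted p = 4.23e-07). THBD, thrombomodulin, fell by 0.66 (SE 0.12, adjusted p = 0.000455).

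Growth factor pathways beyond EGFR held changes in both directions. In the TGF-beta list 4 of 24 rose and 8 fell (median -0.05). The ligands INHBA, an activin subunit (145, 137, 204 and 252 CPM in DMSO, 72.9, 72.5, 122 and 108 CPM with afatinib, -0.98 ± 0.1, adjusted p = 4.25e-06), and TGFB2 (-0.53 ± 0.07, adjusted p = 1.46e-05) fell, and so did SKIL, a target and inhibitor of SMAD signaling (-0.35 ± 0.07, adjusted p = 0.000903). ID1 and ID3, inhibitors of differentiation that bone morphogenetic proteins induce, rose. ID1 went from 50.4, 63.9, 49.6 and 52.1 CPM to 72.5, 90.4, 91.3 and 78.9 CPM (0.62 ± 0.09, adjusted p = 3.29e-05) and ID3 from 42, 37.4, 25.2 and 25.2 CPM to 61.4, 53.5, 44.1 and 42.5 CPM (0.65 ± 0.07, adjusted p = 4.61e-07). SMAD6, the inhibitory SMAD of the same branch, rose by 0.41 (SE 0.1, adjusted p = 0.00675).

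In the WNT list 3 of 24 rose and 7 fell. WNT5B fell from 26.8, 27.9, 29.6 and 36 CPM to 16.9, 15, 22.2 and 20.6 CPM (-0.69 ± 0.07, adjusted p = 3.91e-07), DKK1, a secreted WNT inhibitor, by 0.37 (SE 0.1, adjusted p = 0.0106), and WNT7B rose from 3.34, 5.36, 3.89 and 4.72 CPM to 6.52, 7.88, 8.55 and 6.98 CPM (0.79 ± 0.12, adjusted p = 6.67e-05). JAG1, a Notch ligand, fell by 0.63 (SE 0.09, adjusted p = 4.67e-05), 1 of 3 falls among 17 Notch genes with 1 rise. Vascular and guidance factors fell in 10 of 24 cases with 1 rise (median -0.17). ESM1, endocan, fell from 11.7, 17.1, 17.5 and 23 CPM to 4.27, 4.54, 5.11 and 5.93 CPM (-1.79 ± 0.17, adjusted p = 1.21e-06). EDN1, endothelin (-1.02 ± 0.17, adjusted p = 0.000499), PDGFB (-1.01 ± 0.14, adjusted p = 1.07e-05), SLIT2, a guidance cue (-0.84 ± 0.09, adjusted p = 3.67e-07), and SEMA7A (-0.61 ± 0.08, adjusted p = 2.09e-05) fell too.

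Keratins fell while a junction gene rose. In the epithelial list 2 of 21 rose and 7 fell (median -0.15). KRT81, a hair keratin, fell from 146, 145, 113 and 116 CPM to 98.1, 82.9, 67.5 and 74.9 CPM (-0.68 ± 0.06, adjusted p = 2.05e-08). KRT7 (-0.49 ± 0.05, adjusted p = 4.23e-07), KRT8 (-0.4 ± 0.06, adjusted p = 2.58e-05) and KRT18 (-0.43 ± 0.06, adjusted p = 3.53e-05), the keratins of simple epithelia, fell, with every afatinib library below every DMSO library. JUP, plakoglobin, rose from 21, 21.2, 21 and 20.5 CPM to 30.5, 26.3, 27.9 and 26.7 CPM (0.41 ± 0.07, adjusted p = 9.73e-05).

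Falls were called among genes of G1 and of DNA replication and none among mitosis genes. Of 22 G1/S genes 6 fell and 2 rose (median -0.09), of 34 replication genes 9 fell and 1 rose (median -0.11), and of 30 mitosis genes 1 rose and none fell (median 0.05). CDK6, the kinase partner of cyclin D, fell from 195, 165, 197 and 170 CPM to 129, 141, 136 and 124 CPM (-0.46 ± 0.07, adjusted p = 0.000111). Its inhibitor CDKN2C rose from 52.1, 56.4, 50.2 and 47.8 CPM to 66.5, 66.1, 62.4 and 62.1 CPM (0.32 ± 0.06, adjusted p = 0.000466), and RBL2, the retinoblastoma relative of quiescent cells, rose by 0.41 (SE 0.08, adjusted p = 0.000704). CDKN1A, the p21 inhibitor, fell by 0.39 (SE 0.07, adjusted p = 0.000659).

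For DNA synthesis, the nucleotide reductase subunit RRM2 fell from 361, 334, 326 and 314 CPM to 283, 267, 245 and 246 CPM (-0.36 ± 0.05, adjusted p = 3.81e-05). The helicase subunit MCM7 (-0.31 ± 0.06, adjusted p = 0.00031) and the loading factor CDC6 (-0.32 ± 0.06, adjusted p = 0.000913) fell. The 1 mitosis gene called was AURKB, the chromosome passenger kinase, at 251, 232, 208 and 237 CPM in DMSO and 299, 268, 264 and 290 CPM with afatinib (0.27 ± 0.06, adjusted p = 0.00418). Cell numbers and cell cycle phases were not measured.

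Small falls were called among genes of protein synthesis. Falls were called for 20 of 33 nucleolar genes (median -0.18), 17 of 35 cytosolic ribosomal proteins (median -0.17), 10 of 21 translation factors (median -0.17) and 10 of 19 aminoacyl-tRNA synthetases (median -0.2), with no rise in any of these lists. Many of these genes are highly expressed, and 24.8% of genes of at least 6 log2 CPM fell. NPM1, the nucleolar chaperone, fell from 1300, 1320, 1030 and 928 CPM to 1080, 1020, 757 and 801 CPM (-0.32 ± 0.06, adjusted p = 0.000499), and DKC1 (-0.3 ± 0.05) and NOP58 (-0.26 ± 0.05), which modify ribosomal RNA, fell with adjusted p of 0.000361 and 0.000553. RPL3, a large subunit protein, fell by 0.28 (SE 0.06, adjusted p = 0.00295), EIF6, which keeps the subunits apart, by 0.41 (SE 0.05, adjusted p = 9.26e-06), and EIF2S2, an initiation factor subunit, by 0.35 (SE 0.07, adjusted p = 0.000777).

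Amino acid supply went the same way. ATF4, the factor of the integrated stress response, has targets of which 9 of 19 fell and 1 rose (median -0.27), and 5 of 19 amino acid transporters fell with 1 rise. ASNS, asparagine synthetase, fell from 87.5, 87.5, 81.1 and 75.8 CPM to 60.8, 55.4, 54.7 and 56.7 CPM (-0.54 ± 0.12, adjusted p = 0.00317). The tRNA synthetases GARS (-0.42 ± 0.06, adjusted p = 3.68e-05), WARS (-0.41 ± 0.06, adjusted p = 6.25e-05) and CARS (-0.45 ± 0.07, adjusted p = 8.57e-05) fell, as did ADM2, a peptide hormone gene (-0.73 ± 0.14, adjusted p = 0.000503). MTHFD2, the mitochondrial folate enzyme, fell by 0.39 (SE 0.07, adjusted p = 0.000349), with an adjusted p of 0.0717 in the authors' corrected table. DDIT3, the stress factor CHOP, was the exception and rose from 11.3, 9.48, 7.69 and 7.69 CPM to 19, 12.8, 9.99 and 10.4 CPM (0.52 ± 0.11, adjusted p = 0.00266).

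Of the transporters, SLC7A5, the LAT1 carrier of large neutral amino acids, fell from 1140, 1090, 1400 and 1570 CPM to 806, 722, 1120 and 1060 CPM (-0.5 ± 0.07, adjusted p = 6.59e-06). SLC38A1, a glutamine carrier, fell by 0.51 (SE 0.07, adjusted p = 2.13e-05), and SLC1A1, a glutamate carrier, rose by 0.79 (SE 0.14, adjusted p = 0.000255). Of 23 nucleotide and polyamine genes 8 fell and none rose, CTPS1, CTP synthase, among them (-0.33 ± 0.05, adjusted p = 4.63e-05). Chaperones of the endoplasmic reticulum fell in 8 of 20 cases (median -0.18), with DNAJB9 (-0.58 ± 0.09, adjusted p = 8.25e-05), MANF (-0.45 ± 0.08, adjusted p = 0.000495) and HERPUD1 (-0.39 ± 0.07, adjusted p = 0.000146) as examples. HSPA8, the constitutive cytosolic chaperone, fell by 0.37 (SE 0.08, adjusted p = 0.00143), 1 of 2 falls among 17 heat shock genes.

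Rises were called among antioxidant, lysosomal and energy genes. NRF2 switches on detoxifying and iron-handling genes, and of 24 such targets 11 rose and none fell (median 0.15). SQSTM1, the autophagy receptor p62 (chromosome 5, 179806398 to 179838078, plus strand), stood at 466, 526, 440 and 470 CPM in DMSO and at 732, 787, 711 and 705 CPM with afatinib, with no overlap (0.63 ± 0.07, adjusted p = 3.67e-07). HMOX1, heme oxygenase, rose from 63.9, 52, 45.9 and 49 CPM to 96.1, 77.2, 65.1 and 68.7 CPM (0.54 ± 0.1, adjusted p = 0.000703). GCLC, which makes glutathione's precursor, rose by 0.3 (SE 0.07, adjusted p = 0.00257), OSGIN1 by 0.42 (SE 0.08, adjusted p = 0.000753) and FTL, the ferritin light chain, by 0.44 (SE 0.07, adjusted p = 0.000113). FTH1, the ferritin heavy chain, was called at 0.42 (SE 0.11, adjusted p = 0.00904) although the groups overlapped in the higher set.

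Of 27 lysosome and autophagy genes 7 rose and 2 fell (median 0.09). MITF, a factor that drives lysosomal genes, rose from 15.7, 13.4, 11.6 and 11 CPM to 20.8, 19.3, 13.8 and 13.8 CPM (0.38 ± 0.08, adjusted p = 0.000875). GPNMB, a lysosomal glycoprotein and known target of that factor family, rose from 0.572, 0.625, 0.756 and 0.836 CPM to 1.31, 1.95, 2.88 and 2.07 CPM (1.55 ± 0.17, adjusted p = 6.84e-07). CTSD, a lysosomal protease, rose by 0.42 (SE 0.09, adjusted p = 0.0021), but was not called in the authors' corrected table (adjusted p 0.302). BECN1, a starter of autophagy, fell by 0.32 (SE 0.06, adjusted p = 0.000625), with 0.066 in that table.

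Glycolysis and hypoxia genes rose in 11 of 29 cases and fell in 2 (median -0.02). PDK1, which diverts pyruvate from mitochondria, rose from 19.9, 19.3, 23.1 and 20.8 CPM to 29.3, 33.1, 29.1 and 27.9 CPM (0.53 ± 0.07, adjusted p = 5.16e-06), ALDOC, an aldolase, by 0.56 (SE 0.1, adjusted p = 0.000317) and BNIP3, a mitophagy receptor, by 0.31 (SE 0.06, adjusted p = 0.000919). In lipid synthesis 3 of 23 rose (13%) and 4 fell (17.4%), beside 9% and 10.1% of all genes tested. GPAM, the first enzyme of glycerolipid synthesis, was lower (-0.48 ± 0.07, adjusted p = 2.71e-05) and PLIN2, a lipid droplet coat, higher (0.31 ± 0.05, adjusted p = 0.000123). Of 23 cholesterol synthesis genes 1 rose and 1 fell.

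Clock genes and ABC transporters rose without falls, 4 of 17 and 4 of 11. BHLHE41, a clock repressor, rose from 4.32, 5.47, 4.28 and 4.64 CPM to 7.15, 7.83, 7.56 and 7.21 CPM (0.67 ± 0.09, adjusted p = 1.79e-05), PER3 by 0.58 (SE 0.09, adjusted p = 9.7e-05) and RORA by 0.46 (SE 0.11, adjusted p = 0.00534). ABCC3, an organic anion exporter, rose by 0.76 (SE 0.1, adjusted p = 2.26e-05) and ABCA7 by 0.52 (SE 0.09, adjusted p = 0.000116). In the BCL2 family 7 of 15 fell and none rose (median -0.1). Those included protectors from cell death, BCL2A1 (-0.75 ± 0.16, adjusted p = 0.00144) and MCL1, at 443, 432, 464 and 460 CPM in DMSO and 379, 352, 388 and 369 CPM with afatinib (-0.27 ± 0.06, adjusted p = 0.004).

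**Figure D4:**
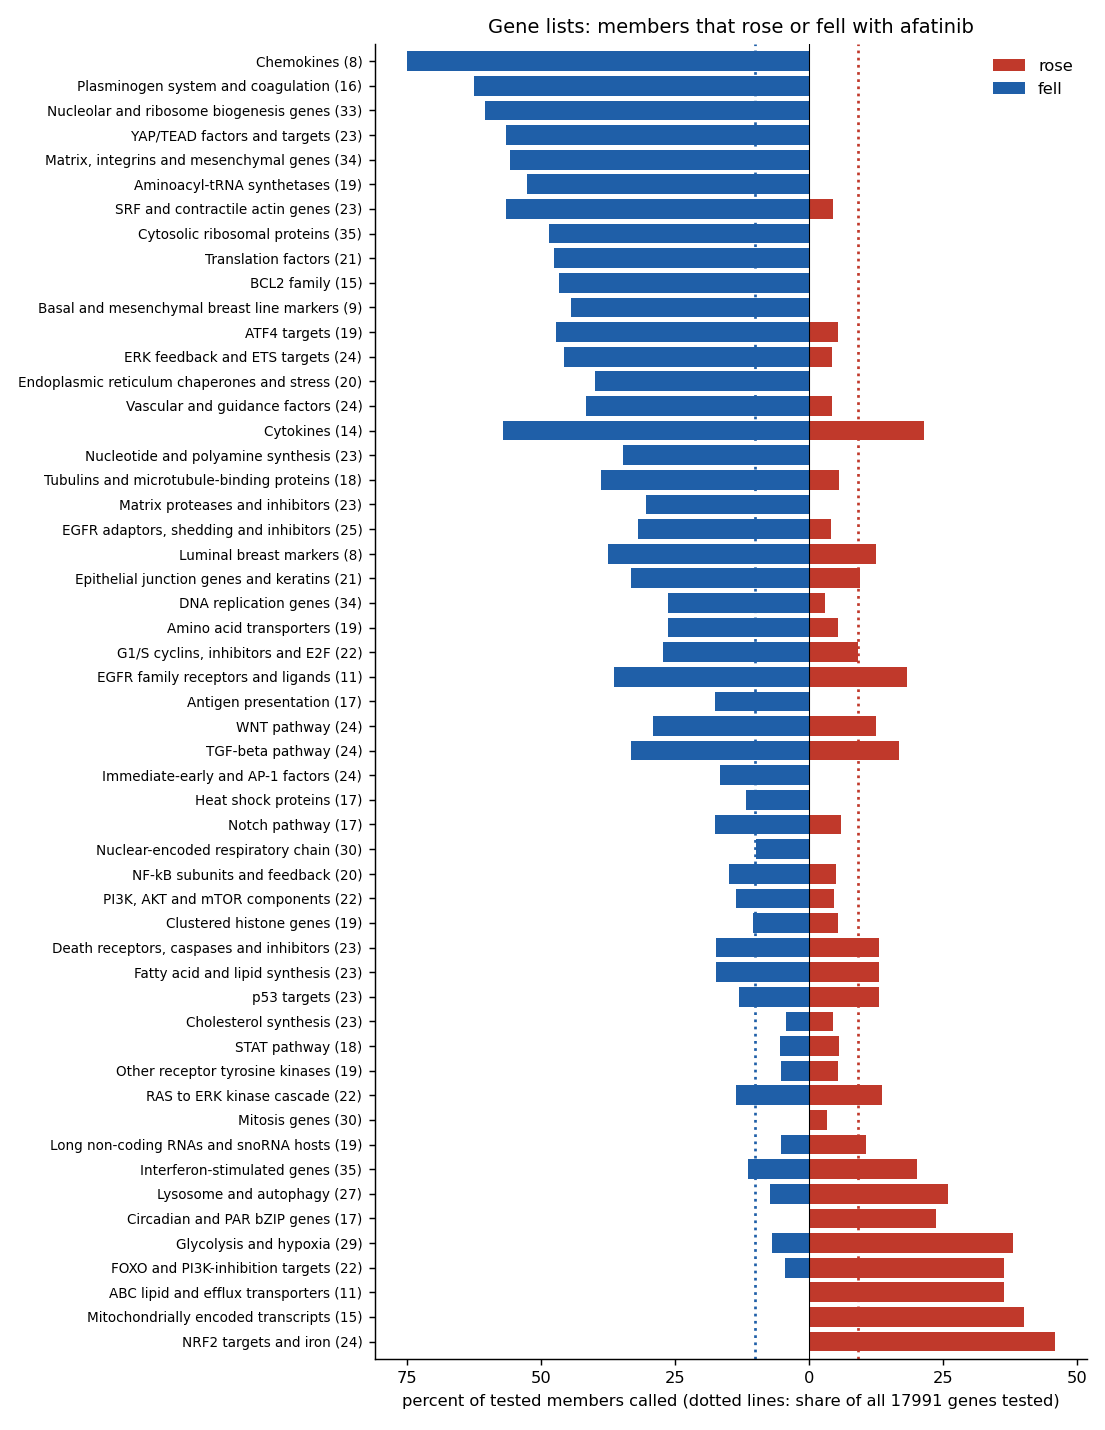
Percent of tested members of each gene list that rose (red, right) or fell (blue, left) with afatinib, with the number tested in brackets and dotted lines at the shares of all genes tested (9% up, 10.1% down). Chemokines, the plasminogen system and nucleolar genes lie furthest to the left, and NRF2 targets and mitochondrially encoded transcripts furthest to the right.

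Transcripts encoded by mitochondrial DNA moved unevenly. Their share of all counts was 2.38, 2.26, 4.09 and 4.72% in DMSO and 2.76, 2.87, 7.23 and 7.05% with afatinib, higher with afatinib within each set and by 1.62 percentage points on average (exact permutation test within sets, two-sided p = 0.0556, the smallest that 36 arrangements allow). Without afatinib replicate 3 or 4 the difference was 0.864 or 0.924 percentage points, and without afatinib replicate 1 or 2 it was 2.35 or 2.32. These are plain differences of group means, so leaving out a library also left the sets unbalanced between the groups. The lower set had the higher share in both groups, and the lowest RNA concentrations of these libraries were those of afatinib replicates 3 and 4. The part of RNA concentration in this difference was not tested.

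Of 15 mitochondrially encoded transcripts in the list 6 rose and none fell (median 0.26), and of all 24 tested, transfer RNAs included, 3 of 6 on the light strand rose and 5 of 18 on the heavy strand rose with 2 falls. MT-ND6, the light-strand subunit of complex I, stood at 107, 181, 324 and 397 CPM in DMSO and at 218, 507, 1290 and 1090 CPM with afatinib (1.52 ± 0.33, adjusted p = 0.00847). The light-strand transfer RNAs MT-TN (1.49 ± 0.19, adjusted p = 8.57e-05) and MT-TC (1 ± 0.18, adjusted p = 0.00107) rose as well. On the heavy strand, MT-ND4 (1.02 ± 0.21, adjusted p = 0.00515), MT-ND5 (1.09 ± 0.26, adjusted p = 0.0131) and MT-CO2 (0.7 ± 0.15, adjusted p = 0.00534) rose. MT-ND4, MT-ND5, MT-ND6 and MT-CO2 lost their calls in the authors' corrected table (adjusted p 0.082 to 0.166), and MT-ND5 also with concentration as a further term (adjusted p 0.054).

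The nuclear copies MTND4P12 (1.04 ± 0.25), MTND5P11 (1.09 ± 0.25) and MTND6P4 (1.45 ± 0.31), side by side on chromosome 5 from 134924123 to 134928036, were among the largest rises. They share sequence with MT-ND4, MT-ND5 and MT-ND6, so their reads cannot be assigned with certainty, and none of the 3 was called in the authors' corrected table (adjusted p 0.0849 to 0.162). Of 30 nuclear genes of the respiratory chain 3 fell and no rise was called (median -0.07).

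Other large changes stood outside the lists. Among well expressed genes ZNF114, a zinc finger gene on chromosome 19 (48270102 to 48287608), rose from 27.4, 24, 24.2 and 23.3 CPM to 56, 50.7, 48.8 and 52.7 CPM (1.07 ± 0.07, adjusted p = 1.98e-10). TRIM16L rose from 57.6, 74.6, 52.6 and 47.2 CPM to 133, 142, 102 and 107 CPM (1.06 ± 0.09, adjusted p = 3.62e-08), and MEGF6, a secreted protein with EGF-like repeats, from 11 ± 3.82 to 25.2 ± 8.2 CPM (SD, n = 4 each; log2 change 1.2 ± 0.1, adjusted p = 3.62e-08). None of the 3 overlapped between groups.

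CLU, the extracellular chaperone clusterin, rose by 1.11 (SE 0.1, adjusted p = 9.29e-08), CYP1B1, a cytochrome P450 of the aryl hydrocarbon response, by 0.95 (SE 0.14, adjusted p = 0.000139) and CXADR, a junction protein and virus receptor, by 0.89 (SE 0.1, adjusted p = 1.59e-06). The long non-coding RNA UCA1, chosen after its values were seen, rose from 159, 138, 98.7 and 86.9 CPM to 286, 273, 150 and 166 CPM (0.84 ± 0.06, adjusted p = 2.91e-09). Falls of similar size were those of HIC1, a transcriptional repressor (-0.94 ± 0.1, adjusted p = 8.5e-07), CFAP45, a cilium protein gene (-0.96 ± 0.1, adjusted p = 2.74e-07), and IGFBP3, which binds insulin-like growth factors (-0.93 ± 0.12, adjusted p = 8.25e-05).

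Low-level genes held most of the largest rises. TNFRSF9, which encodes the costimulatory receptor 4-1BB, rose from 1.9, 2.25, 3.59 and 4.99 CPM to 5.16, 6.51, 11.3 and 11.1 CPM (1.44 ± 0.13, adjusted p = 5.04e-08). CDK15, a cyclin-dependent kinase gene (1.31 ± 0.12, adjusted p = 4.96e-08), TMEM8B (1.18 ± 0.13, adjusted p = 6.47e-07) and DNAH6, a dynein heavy chain gene (1.12 ± 0.12, adjusted p = 6.84e-07), rose, each with every afatinib library above every DMSO library. The non-coding RNA PKI55 fell from 5.28, 6.9, 6.79 and 7.39 CPM to 1.31, 1.77, 2.5 and 1.66 CPM (-1.87 ± 0.14, adjusted p = 2.28e-09), and a transcript close to it on chromosome 2, of a class GENCODE marks as awaiting experiments, at 216211404 to 216213519, fell by 1.62 (SE 0.15, adjusted p = 9.12e-08). CYP24A1, which breaks down vitamin D, fell by 1.07 (SE 0.11, adjusted p = 3.91e-07), and HAS2, which makes hyaluronan, fell from 3.77, 3.44, 4.49 and 4.32 CPM to 1.22, 1.1, 2 and 1.96 CPM (-1.38 ± 0.14, adjusted p = 1.69e-07).

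Cell identity was checked by markers of this kind of line and of other cell types. The 9 basal and mesenchymal line markers summed to 7910 to 9990 CPM in DMSO and 6910 to 8550 CPM with afatinib, and 4 of them fell. Of 10 blood markers 6 were in the table, and of 7 fibroblast markers 6. In each of these lists 5 of the 6 had at most 10 counts in every one of the 8 libraries. The only member of each that was tested, CD14 for blood and THY1 for fibroblasts, stayed at or under 1.02 and 0.797 CPM. No marker in the table was at 0 in all 8 libraries. Of 6 endothelial markers 5 were tested and 1 fell, CDH5, VE-cadherin (-1.69 ± 0.25, adjusted p = 2.68e-05, from 0.732 to 2.64 CPM in DMSO). The 5 tested summed to 3.75 to 9.41 CPM in DMSO and 2.88 to 5.64 CPM with afatinib. Of 8 luminal markers tested 3 fell and 1 rose. These 8 summed to 927 to 1100 CPM in DMSO and 701 to 809 CPM with afatinib. Over the 8 libraries KRT8 held 19449 to 32871 counts, KRT18 7558 to 15694, GATA3 420 to 623, PGR 174 to 298 and ESR1 7 to 21.

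Afatinib was compared with paclitaxel, a microtubule stabiliser, library group against library group. Between the 2 drugs 6479 genes differed (36%), 3402 higher and 3077 lower with afatinib (3191 and 3283 by DESeq2), and 154 of the 191 called genes named here were among them. Most named genes were picked by their change against DMSO, and both comparisons used the same afatinib libraries. The 154 of 191 can therefore not be set beside the 36%. Replicates 1 and 2 of paclitaxel were labelled 345.6 and 429.7 ng/µl, against 1134.9 and 868.6 for afatinib, so the sets did not match RNA concentration between the drugs. With RNA concentration as a further term 5893 genes differed, 3134 higher and 2759 lower with afatinib. The log2 difference of afatinib from paclitaxel was -1.48 for CXCL8 (adjusted p = 0.00171), -1.21 for IL11 (adjusted p = 1.01e-08), -1.92 for ESM1 (adjusted p = 1.64e-07), -0.77 for ACTG1 (adjusted p = 2.97e-09) and -4.23 for SERPINB2 (adjusted p = 1.16e-11), so these stood lower with afatinib than with the other drug. AURKB (0.81, adjusted p = 1.66e-09) and CDKN2C (0.71, adjusted p = 3.25e-09) were higher with afatinib than with paclitaxel. The difference between the drugs was not called for NUAK2 (-0.03, adjusted p = 0.788), PHLDA1 (0.02, adjusted p = 0.803) and IL6R (0.03, adjusted p = 0.817).

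The afatinib change was then compared between cells with and without paclitaxel, as the combination over paclitaxel minus afatinib over DMSO. Of 17991 genes 159 differed (0.884%), 70 upward and 89 downward. With RNA concentration, which the sets did not match between the treatments, as a further term 127 differed, 60 upward and 67 downward. Which direction held more genes depended on the setting, with 200 upward and 167 downward by DESeq2, 283 and 196 without a filter on low counts, 55 and 28 in the authors' corrected table, and 131 and 65 without DMSO replicate 3. With the replicate number as a block 501 differed, and leaving out single libraries gave 47 without afatinib replicate 3, 64 without DMSO replicate 4, 65 without afatinib replicate 2, 76 without afatinib replicate 1, 84 without afatinib replicate 4 and 98 without DMSO replicate 1.

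WNT7B had the largest difference among the genes named. WNT7B stood at 7.08, 6.92, 9.08 and 8 CPM with paclitaxel and at 4.11, 4.67, 5.6 and 5.46 CPM with both drugs, so that its rise with afatinib alone was not seen beside paclitaxel (difference -1.44 ± 0.17, adjusted p = 0.000101). CCNE2, a cyclin of S phase entry, stood at 15, 16.6, 20.4 and 19.1 CPM with paclitaxel and at 6.55, 5.86, 8.3 and 9.36 CPM with both, while its fall with afatinib alone was from 29.1, 29.4, 29.8 and 29.4 CPM to 22.4, 25.1, 23.5 and 22.4 CPM (difference -0.91 ± 0.13, adjusted p = 0.000994). HAS2 went from 6.16, 6.64, 9.48 and 9 CPM to 1.04, 0.828, 1.86 and 2.11 CPM (difference -1.07 ± 0.19, adjusted p = 0.00614).

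More negative changes beside paclitaxel were also found for PPAP2B, a lipid phosphatase (-0.86, adjusted p = 0.00274), PITPNM3 (-0.68, adjusted p = 0.0018), SHISA2 (-0.63, adjusted p = 0.0131), FST, the activin antagonist follistatin (-0.59, adjusted p = 0.00459), and NDRG1, a stress and hypoxia gene (-0.49, adjusted p = 0.00409). In the other direction, SLC1A4, a carrier of small neutral amino acids (0.9, adjusted p = 0.00773), GFPT2, of the hexosamine pathway (0.47, adjusted p = 0.00614), and SMTN, smoothelin (0.43, adjusted p = 0.00614), had less negative or more positive changes. ASNS stood at 47.3, 64, 64.6 and 47.5 CPM with paclitaxel and at 59.6, 64.4, 84.6 and 80 CPM with both, against its fall with afatinib alone (difference 0.91 ± 0.16, adjusted p = 0.0183), which was not called once afatinib replicate 3 was dropped (0.0504). ULBP2 (0.59, adjusted p = 0.03) was not called when afatinib replicate 2, afatinib replicate 4 or DMSO replicate 4 was dropped (adjusted p up to 0.0623), and CNTRL, a centrosome gene (0.39, adjusted p = 0.0313), when any of replicates 1 and 3 of afatinib and 1 and 4 of DMSO was dropped (up to 0.0794).

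**Figure D5:**
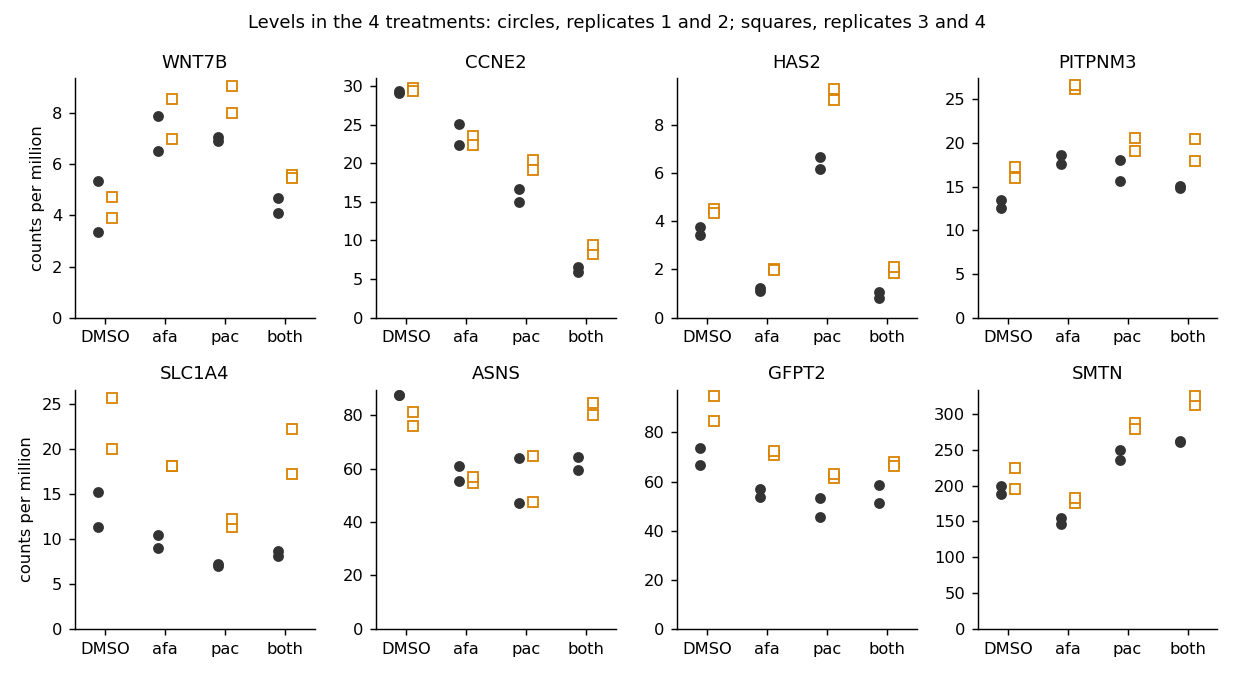
Level in CPM of 8 genes in the 4 libraries of each treatment (DMSO, afatinib, paclitaxel and both drugs), with filled circles for replicates 1 and 2 and open squares for replicates 3 and 4. WNT7B rises with afatinib alone and is lower with both drugs than with paclitaxel, CCNE2 is lowest with both drugs, and ASNS is lower with afatinib than with DMSO but not lower with both drugs than with paclitaxel.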

How the data were processed

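RNA of MDA-MB-231 cells was sequenced in 16 libraries, 4 for each treatment. The authors deposited whole-number counts per gene for 37864 Ensembl genes, made with STAR 2.7.5b and featureCounts (Subread 2.0.1) on hg38, per the submitters' processing notes. The deposited log2 table of the authors, used only as an alternative, equals log2 CPM minus a line in RNA concentration for each gene, to within 6.41e-14. Genes passing edgeR's filterByExpr (minimum count 10, total 15) were tested, 17991 in all, with edgeR 4.0.16 in R 4.3.3 (TMM, robust quasi-likelihood fit of all 16 libraries, treatment and concentration set as terms, Benjamini-Hochberg adjustment over all genes). The SE is the log2 change over the square root of F. The biological coefficient of variation was 7.41%. Alternatives used limma 3.58.1, DESeq2 1.42.0, other filters and scalings, and each of the 8 libraries left out. The method was tested on simulated data. Positions are from GENCODE release 29. Totals per library bound precision by counting error only.

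Named genes were the 15 largest rises and 15 largest falls of at least 3 average log2 CPM, up to 4 per list by p, the 10 most abundant called genes, up to 6 low-level genes per direction, up to 6 per direction by the difference with paclitaxel, and the ERBB receptors. Named outside this rule, after their values were seen, were AREG, ERRFI1, SPRY4, CCND1, DUSP6, ETV1, CXCL2, CCL20, CSF3, TNFSF15, IL18, IL15, CSF1, ANKRD1, TEAD4, ACTG2, CNN2, TPM4, MYL9, ZYX, ID1, SKIL, SMAD6, DKK1, PLAT, THBD, MMP9, FN1, JUP, FTH1, CTSD, IFITM3, UCA1, NRG1, IL6 and CSF2. The comparison and the gene lists were chosen with earlier results of these data known. Replicate numbers come from the labels. Deviations from the group means correlated between afatinib and DMSO libraries of the same number at 0.48 to 0.66 (4 pairs) and over all groups at 0.37 to 0.7 (24 pairs). Over all groups, libraries of the same set and another number correlated at 0.38 to 0.67. Medians were higher for the same number, 0.59 against 0.5 over all groups and 0.6 against 0.48 between afatinib and DMSO. Since the ranges overlapped, it was not settled whether the numbers pair libraries. The main fit did not pair libraries by number, and the replicate block was an alternative. No libraries were copies of each other. Some genes are not reported here.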

Additional observations from a re-analysis of the deposited data

Results flagged for a closer look

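In 5 groups of 4 values, 1.28% of those looked at over all named genes, 1 library stood far from the other 3, by a criterion (Dixon's) that chance meets in about 5% of groups. That 5% holds for values of a single population, whereas each group spans both concentration sets, so the shares cannot be compared. ACTG2 in DMSO replicate 2 was lowest at 0.692 CPM, with the others at 1.19 to 1.26. OSGIN1 in DMSO replicate 2 was highest at 24.5 CPM, with the others at 18.4 to 19.4. With afatinib, MAFF in replicate 1 was highest at 52.9 CPM (others 33.8 to 35.4), FOXO3 in replicate 2 at 64.8 CPM (others 61.7 to 62) and IL1A in replicate 2 at 5.98 CPM (others 4.98 to 5.03).

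The afatinib change differed between cells with and without paclitaxel (edgeR, with minus without, log2) for 19 named genes. The difference was negative for WNT7B (-1.44), HAS2 (-1.07), CCNE2 (-0.91), PPAP2B (-0.86), PITPNM3 (-0.68), DKK1 (-0.64), SHISA2 (-0.63), FST (-0.59), NDRG1 (-0.49), MITF (-0.47) and ID3 (-0.42). It was positive for ASNS (0.91), SLC1A4 (0.9), ULBP2 (0.59), GFPT2 (0.47), SMTN (0.43), CARS (0.42), WARS (0.41) and CNTRL (0.39). Leaving out single libraries ended the calls of ID3 (adjusted p up to 0.0993), DKK1 (0.0873), WARS (0.0774), CARS (0.113), MITF (0.0812), ULBP2 (0.0623), CNTRL (0.0794) and ASNS (0.0504).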

How the results depend on the processing

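The count of genes called for afatinib against DMSO, 3432, was 380 without the set term, 1245 in replicates 1 and 2 only, 527 in replicates 3 and 4 only, 57 against a 1.5-fold null and 1961 in the authors' corrected table, and 2512 to 3221 with 1 library left out. Afatinib against paclitaxel, 6479, gave 1654, 3615 and 2785 under the first 3 of these and 208 against the 1.5-fold null (5516 to 6772 with 1 library left out). The count that differed with paclitaxel present, 159, was 0 without the set term, 3 in replicates 1 and 2, 4 in replicates 3 and 4, 0 against the 1.5-fold null, 83 in the authors' table, 367 with DESeq2, 479 without a filter and 501 with the replicate block (47 to 196 with 1 library left out). The replicate block gave 4446 calls for afatinib against DMSO, and RNA concentration as a further term gave 2467. The sign for EGFR, never called, turned to 0.02 in replicates 1 and 2 only, and with 1 library left out it lay between -0.09 and 0.06 (0.01 without afatinib replicate 4, 0.06 without DMSO replicate 1 and 0.04 without DMSO replicate 4). Calls of 182 of the 191 named genes held with each library left out, the replicate block ended none, and leaving out the set term ended 134. Causes were not tested; fewer libraries entered the fits of a single set.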
